A study of Homo sapiens with 70 samples.

Results

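Sotorasib-resistant MIA PaCa-2 cells in which doxycycline (DOX) had been given for 3 days, and which carried either of the 2 guides against ZBTB11, were compared with equally treated cells carrying the guide sgNS. MIA PaCa-2 is an established human line of pancreatic ductal adenocarcinoma (PDAC), and sotorasib is an anticancer drug to which these cells had become resistant. The cells held an inducible CRISPR interference system, in which DOX turns on a dead Cas9 fused to the KRAB repressor domain and a guide RNA brings that fusion to a promoter. The comparison took 9 of the 70 libraries of the study, namely 3 of sgZBTB11 #1 with DOX, 3 of sgZBTB11 #2 with DOX and, as the control, 3 of sgNS with DOX. It was the mean of both ZBTB11 guides minus sgNS. Since every one of these cells received DOX, an effect of DOX that the lines share drops out, whereas a difference that the lines already had without DOX does not. The 9 day 3 libraries of the same lines given DMSO, the solvent, were therefore used to measure the standing difference, ZBTB11 guides minus sgNS with DMSO. The difference with DOX minus the difference with DMSO is called the net difference. The labels do not say whether a line was 1 clone or a pool, nor whether replicate libraries were grown separately, and p-values therefore speak of library-to-library spread, possibly technical. Neither the guides' sequences nor the dose of DOX were used here.

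ZBTB11 is a zinc finger transcription factor with a BTB domain, known for binding promoters of nuclear genes for mitochondrial proteins. Mitochondria make 13 proteins of the respiratory chain on ribosomes of their own, whose RNA comes from mitochondrial DNA and whose proteins, named MRPL for the large and MRPS for the small subunit, come from the nucleus. Complexes I, III and IV pass electrons from NADH to oxygen, coenzyme Q carries electrons between complexes, and complex V, the ATP synthase, makes ATP. Respiration is one of the sources of energy open to pancreatic cancer cells, beside glycolysis.

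Poly(A) RNA was sequenced, and values are given in CPM, counts-per-million of the library's counts after TMM scaling. The 9 libraries held 14428064 to 17323314 counts. Genes of the cancer line were high in all of them, with KRT8 between 611 and 680 TPM and KRT18 between 1248 and 1362 TPM (a level per transcript length). Among 10 immune markers 9 lay below 1 TPM in the 9 libraries, and CD3E, MS4A1, CSF1R and FCGR3A were listed at 0 in every one. Among 6 endothelial markers 5 lay below 1 TPM, the exception being CDH5, and among 8 acinar and endocrine markers 7 were listed at 0. The fibroblast markers FAP, DCN, LUM and PDGFRB were at or near 0, while COL1A2 stood at 174 to 199 TPM, ACTA2 at 6.11 to 8.52 TPM and COL3A1 at 3.16 to 8.11 TPM. Transcripts encoded by mitochondrial DNA took 20.4% ± 1.5 of the counts with the ZBTB11 guides (SD, n = 6) and 19.9% ± 0.11 with sgNS (n = 3), a difference of 0.505 percentage points (exact two-sided permutation test over 84 splits, p = 0.536).

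The targeted gene was lower in every ZBTB11-guide library. ZBTB11 (ENSG00000066422.7, chromosome 3, 101648889 to 101677132, GRCh38.p14) stood at 34.1, 37.1 and 37.7 CPM with sgZBTB11 #1 and at 29, 28.3 and 28.6 CPM with sgZBTB11 #2, against 59.8, 52.7 and 57.9 CPM with sgNS. The highest ZBTB11-guide library thus lay below the lowest sgNS library, and the libraries of sgZBTB11 #2 lay below those of sgZBTB11 #1. The means were 32.5 ± 4.4 CPM with the ZBTB11 guides (SD, n = 6) and 56.8 ± 3.7 CPM with sgNS (n = 3), a log2 difference of -0.81 (SE 0.047, adjusted p = 4.1e-17, edgeR). The guides differed from each other by -0.35, sgZBTB11 #2 minus sgZBTB11 #1 (adjusted p = 6.4e-05, edgeR). Part of the difference stood without DOX, where ZBTB11 averaged 49.6 ± 1 CPM with the ZBTB11 guides and 59.1 ± 4.6 CPM with sgNS, a log2 difference of -0.25. Net of that, the difference was -0.56 (adjusted p = 8.3e-07). Of the 7 neighbouring genes on the list used here none passed the threshold, an adjusted p under 0.05. The differences of PCNP, RPL24, SENP7, NXPE3, TRMT10C and CEP97 lay between -0.16 and 0.14. The antisense gene ZBTB11-AS1 was at 0.12. Its reads could be told apart from those of ZBTB11 only if strand was used in counting, which was not established here. With sgZBTB11 #2 alone TRMT10C was higher at 0.21 (adjusted p = 0.0393, edgeR). NFKBIZ was not on that list. It overlaps the end of NXPE3, and it was higher at 0.42 (adjusted p = 2.5e-05, edgeR). In bulk RNA, fewer cells of a type and less RNA per cell cannot be told apart, here and for every gene that follows.

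The promoters of ZBTB11 and of 3 large-subunit genes of the mitochondrial ribosome that were lower with the ZBTB11 guides (MRPL48, MRPL40 and MRPL30, described further on) are shown because they are the target of the repressor and members that moved together. Each runs from 250 bases before to 50 bases after the RefSeq start of the gene (GRCh38.p14), at chr3:101677083-101677382 (minus strand) for ZBTB11, chr11:73787624-73787923 (plus strand) for MRPL48, chr22:19432295-19432594 (plus strand) for MRPL40 and chr2:99180934-99181233 (plus strand) for MRPL30. Capitals mark the letters CCGGAAG or, on the other strand, CTTCCGG, the core bound by ETS-family factors, which was searched on both strands after the values had been seen.
ZBTB11: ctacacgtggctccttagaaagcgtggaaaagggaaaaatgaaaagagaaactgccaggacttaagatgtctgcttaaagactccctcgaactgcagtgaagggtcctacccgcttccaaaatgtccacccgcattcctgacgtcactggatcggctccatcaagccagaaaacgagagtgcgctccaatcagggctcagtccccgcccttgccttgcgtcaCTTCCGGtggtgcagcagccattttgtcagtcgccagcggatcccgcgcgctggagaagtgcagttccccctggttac
MRPL48: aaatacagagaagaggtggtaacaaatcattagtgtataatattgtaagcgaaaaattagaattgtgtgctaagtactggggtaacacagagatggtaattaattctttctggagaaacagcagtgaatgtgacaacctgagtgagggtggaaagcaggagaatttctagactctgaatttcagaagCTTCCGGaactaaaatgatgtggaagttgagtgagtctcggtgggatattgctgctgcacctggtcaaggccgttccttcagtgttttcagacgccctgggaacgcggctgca
MRPL40: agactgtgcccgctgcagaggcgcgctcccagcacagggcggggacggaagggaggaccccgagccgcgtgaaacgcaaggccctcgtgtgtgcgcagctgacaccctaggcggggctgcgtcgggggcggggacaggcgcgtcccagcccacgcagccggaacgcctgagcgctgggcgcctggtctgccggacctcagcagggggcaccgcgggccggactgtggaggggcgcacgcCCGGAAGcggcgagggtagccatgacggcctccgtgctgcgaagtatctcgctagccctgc
MRPL30: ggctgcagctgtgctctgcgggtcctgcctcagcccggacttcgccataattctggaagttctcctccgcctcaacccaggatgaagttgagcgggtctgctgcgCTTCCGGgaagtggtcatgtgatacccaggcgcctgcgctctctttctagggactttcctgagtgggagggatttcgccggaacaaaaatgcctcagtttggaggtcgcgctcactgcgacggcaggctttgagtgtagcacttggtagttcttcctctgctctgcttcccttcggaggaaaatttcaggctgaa

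Each of the 4 promoters holds the motif 1 time. It was present in 3603 of 35116 RefSeq promoters of this length (10.3%) and in 2667 of 15758 promoters of the genes tested (16.9%). The letters stood in 19 of 52 promoters of the tested genes of the large mitochondrial ribosomal subunit (36.5%, some genes having several promoters) and in 15 of 38 of the small one (39.5%). Among the members that were lower with the ZBTB11 guides, it stood in 4 of 5 promoters of the large subunit, MRPL1 being without it. In the small subunit it stood in 0 of 3 promoters of such members. A match is a description of these letters and no site of binding, and AGK, a gene that was lower as well, had no match in its window.

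Across 16645 genes, 1330 differed between the ZBTB11 guides and sgNS with DOX (7.99%, edgeR quasi-likelihood test, Benjamini-Hochberg adjustment). Of these, 583 were higher (3.5% of all genes) and 747 lower (4.49%) with the ZBTB11 guides. Most differences were small: 878 of the 1330 were under 0.25 on the log2 scale, 148 reached 0.5 and 46 reached 1. In 919 of the 1330 genes (69.1%) the 6 ZBTB11-guide libraries lay wholly on one side of the 3 sgNS libraries, against 1596 of all genes (9.59%). The 10 largest increases and 10 largest decreases named here were taken only from genes separated in this way. Among them are ZBTB11, NR4A1, SOCS3, TXNIP, COL6A3, DKK1, DHRS2 and CFI, whose lack of overlap with sgNS was fixed by that choice. The number of calls depended on the few sgNS libraries, and was 819, 774 or 836 without sgNS replicate 1, 2 or 3.

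Many of the differences with DOX were also present with DMSO. In the DMSO libraries 1773 genes differed (10.7%, with 5.14% of all genes higher and 5.52% lower). Of the 1330 genes called with DOX, 583 were called there in the same direction (43.8% of the DOX calls and 32.9% of the DMSO calls). In the opposite direction 5 were called. The DOX log2 difference is taken between DOX libraries only, but its test shared a fit with the DMSO libraries. The 2 sets of calls are therefore not independent, and the DOX calls numbered 1435 without sgNS DMSO replicate 1. With each comparison fitted on its own libraries, 572 of 1306 DOX calls (43.8%) were also called with DMSO in the same direction. The DMSO difference had the sign of the DOX difference in 1191 of the 1330 genes (89.5%), compared with 10585 of all 16645 genes (63.6%). Across the 1330 called genes the DOX and DMSO differences were correlated with r = 0.829, and across all genes with r = 0.322, as a description over genes, which are not independent, in libraries that share the 3 cell lines. The net difference uses the DOX libraries again, and 82 genes passed it (0.493%; 0.156% higher and 0.336% lower). Of the 1330 genes, 50 passed both the DOX test and the net test in one direction, 14 higher and 36 lower, and 37 of these 50 were not called with DMSO. The 50 became 27, 31 or 23 without sgNS DOX replicate 1, 2 or 3, 86, 24 or 23 without sgNS DMSO replicate 1, 2 or 3, and 33 or 31 without sgZBTB11 #2 DMSO replicate 2 or 3. The other genes divide into those also called with DMSO and 705 that passed neither the DMSO nor the net test.

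**Figure D1:**
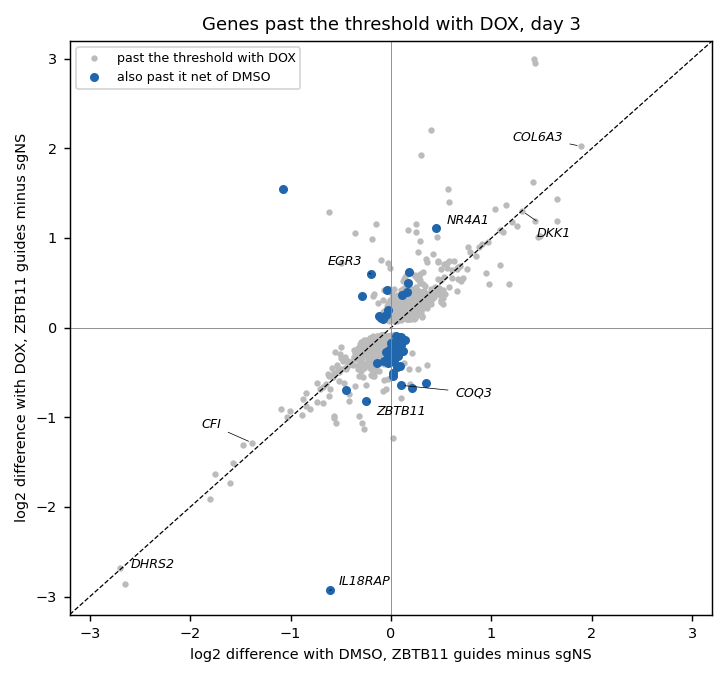
Each of the 1330 points is a gene past the threshold with DOX at day 3, with its log2 difference (ZBTB11 guides minus sgNS) with DOX on the y axis and with DMSO on the x axis; the dashed line marks equal differences, blue points are the 50 genes that also passed the net test, and 3 points beyond 3.2 are not drawn. Large differences such as DHRS2, CFI and COL6A3 lie on the line, whereas COQ3 and EGR3 lie near 0 or on the other side of 0 with DMSO.

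Among the genes lower with the ZBTB11 guides and lower net of DMSO, those for mitochondrial proteins were led by COQ3, MRPL48 and AGK. COQ3, an O-methyltransferase of coenzyme Q synthesis, was at 10.2, 11.3 and 11.3 CPM with sgZBTB11 #1 and at 7.88, 8.77 and 8.59 CPM with sgZBTB11 #2, against 15.3, 15.7 and 14 CPM with sgNS. The groups did not overlap, and sgZBTB11 #2 was the lowest. The means were 9.68 ± 1.5 CPM with the ZBTB11 guides (SD, n = 6) and 15 ± 0.89 CPM with sgNS (n = 3), a log2 difference of -0.64 (SE 0.073, adjusted p = 1.8e-08, edgeR). With DMSO, COQ3 averaged 15.4 ± 0.5 CPM with the ZBTB11 guides and 14.3 ± 0.98 CPM with sgNS. Of the 13 tested genes of coenzyme Q synthesis 2 passed the threshold, both lower (15.4%, against 4.49% of all genes), the other being COQ2, which attaches the side chain to the ring of coenzyme Q (-0.20, adjusted p = 0.014), and the median over the 13 was 0.01. COQ2 lost its call without sgNS replicate 1 or 3.

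MRPL48, which belongs to that large subunit, stood at 13.3, 14.1 and 13.5 CPM with sgZBTB11 #1 and at 10.9, 11.4 and 11.3 CPM with sgZBTB11 #2, against 16.6, 17 and 19.1 CPM with sgNS. Its groups did not overlap, with sgZBTB11 #2 again lowest, and the log2 difference was -0.51 (SE 0.074, adjusted p = 4.3e-06). MRPL40 was at 56.9, 54.8 and 52.5 CPM with sgZBTB11 #1 and 52.8, 52.6 and 45.8 CPM with sgZBTB11 #2, against 67.7, 68.2 and 69.5 CPM with sgNS, a log2 difference of -0.38 (adjusted p = 2.9e-08). Every ZBTB11-guide library of MRPL40 lay below every sgNS library. MRPL30 averaged 39.8 ± 1.7 CPM with the ZBTB11 guides and 50.1 ± 0.52 CPM with sgNS, a log2 difference of -0.33 (adjusted p = 7.6e-07). MRPL58, a peptidyl-tRNA hydrolase that frees stalled mitochondrial ribosomes, averaged 19 ± 0.36 CPM with the ZBTB11 guides and 23.6 ± 1.4 CPM with sgNS, a log2 difference of -0.31 (adjusted p = 0.00027). The DMSO differences of these 4 genes lay between -0.03 and 0.07. Of 49 tested genes of the large subunit 5 were lower (10.2%, against 4.49% of all genes), the other one being MRPL1 at -0.21, none was higher, and 44 did not pass. Their median was -0.05 with DOX and 0.05 with DMSO, against 0.000891 over all genes with DOX.

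AGK is a kinase of lipids in mitochondria and a subunit of the TIM22 complex, which inserts carrier proteins into the inner membrane. It was at 29.7, 30.3 and 29.2 CPM with sgZBTB11 #1 and 24.6, 27 and 25.5 CPM with sgZBTB11 #2, against 37.1, 37.8 and 37.2 CPM with sgNS. No library of either ZBTB11 guide reached the sgNS libraries, and the log2 difference was -0.44 (SE 0.047, adjusted p = 5.1e-09), compared with 0.05 with DMSO. AGK was the 1 gene past the threshold among 30 tested genes of mitochondrial protein import (3.33%, against 4.49% of all genes lower). In the small ribosomal subunit 3 of 32 tested genes were lower (9.38%, against 4.49% of all genes) and none higher: MRPS30 at -0.20, MRPS6 at -0.14 and PTCD3, which binds RNA in the small subunit, at -0.12. None of these 3 passed the net test.

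**Figure D2:**
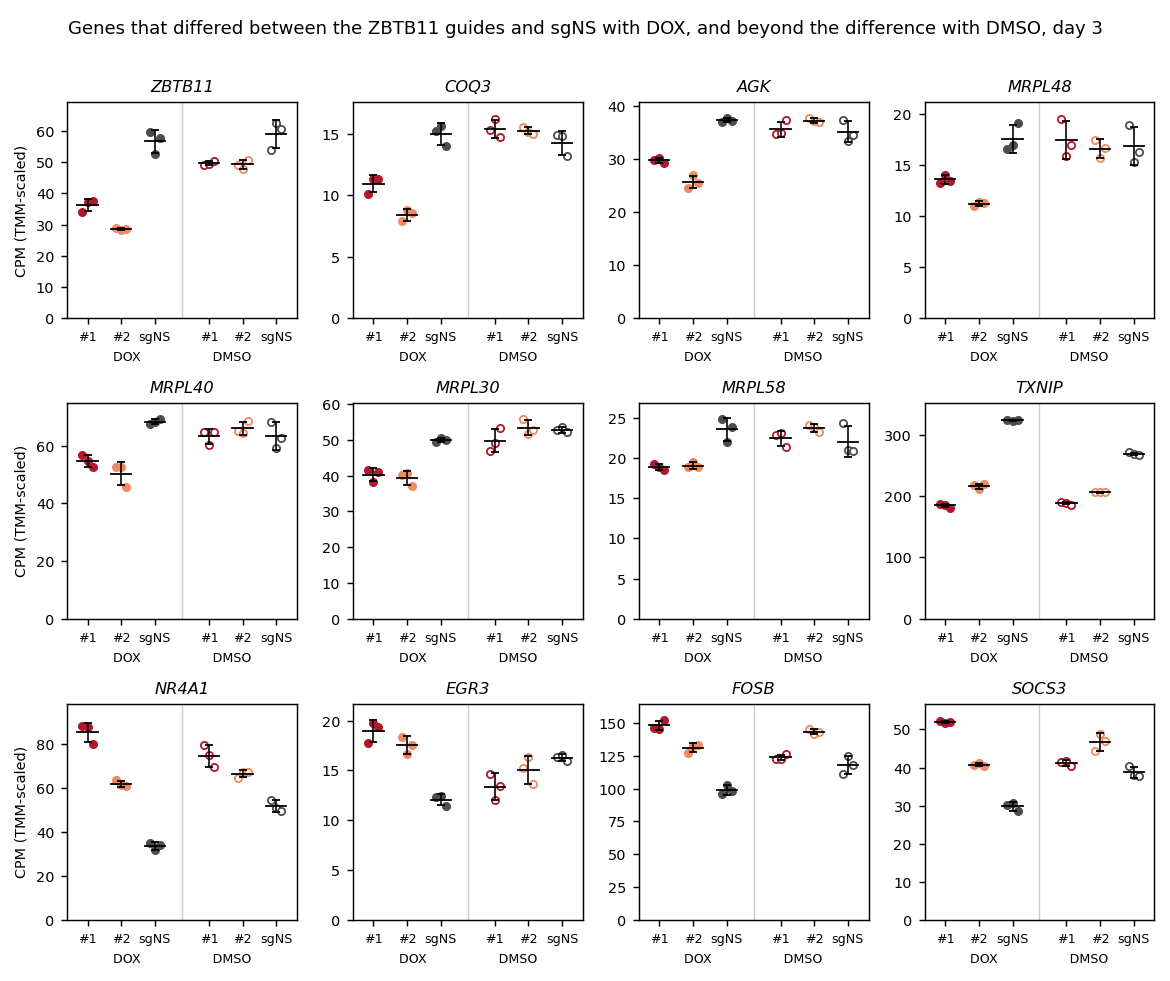
Levels in CPM (y axis, starting at 0) of 12 genes in each day 3 library, with sgZBTB11 #1, sgZBTB11 #2 and sgNS from left to right, filled for DOX and open for DMSO; lines and bars are means and SDs of 3 libraries. With DOX the sgZBTB11 #2 libraries of COQ3, AGK and MRPL48 lie lowest and the sgNS libraries highest, while with DMSO the 3 guides lie close together; for TXNIP the sgNS libraries stand above both ZBTB11 guides with DMSO as well.

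Among nuclear genes of the respiratory chain most members did not pass, and those that did were lower. Of 37 tested complex I subunits 7 were lower (18.9%, against 4.49% of all genes lower) and none was higher. NDUFS4 was at -0.19, NDUFA12 at -0.18, NDUFA2 at -0.17 and NDUFA8 at -0.17, and the median of the 37 was -0.04 with DOX and 0.03 with DMSO. NDUFA2 averaged 149 ± 4.4 CPM with the ZBTB11 guides and 167 ± 1.2 CPM with sgNS. Of these 37, 1 was lower by the net test. By guide, 9 were lower with sgZBTB11 #1 and 3 with sgZBTB11 #2, and 5 differed between the guides. The count for complex I was 4 without sgNS replicate 2. NDUFS4 differed between guides, and its difference was as large with DMSO (-0.16). None of the 16 tested assembly factors of complex I passed. In complexes III, IV and V 7 of 37 were lower (18.9%) and none higher, with ATP5F1E, the epsilon subunit of the ATP synthase, at -0.28, COX5B at -0.15 and ATP5F1D at -0.14. ATP5F1E averaged 580 ± 46 CPM with the ZBTB11 guides and 704 ± 19 CPM with sgNS. It did not pass the net test, and it lost its call in 3 of 29 alternatives, all on TPM. In TPM with DOX it was at 151 to 218 with sgZBTB11 #1, 187 to 279 with sgZBTB11 #2 and 236 to 248 with sgNS. With DMSO the same groups were at 166 to 176, 208 to 230 and 200 to 271 TPM. Of the 37 genes of complexes III, IV and V, 1 was lower by the net test. By guide, 13 were lower and 1 higher with sgZBTB11 #1, 5 were lower with sgZBTB11 #2, and 11 differed between the guides. The count for complexes III, IV and V was 4, 4 or 3 without sgNS replicate 1, 2 or 3, and 12 without sgZBTB11 #2 replicate 2. In the TCA cycle, 1 of 29 tested genes passed (3.45%, against 7.99% of all genes), FH, which was higher at 0.17.

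Of 13 tested mRNAs that mitochondrial DNA encodes, 4 were higher with the ZBTB11 guides (30.8%, against 3.5% of all genes) and none lower: MT-ND4 at 0.11, MT-ATP6 at 0.10, MT-CO2 at 0.10 and MT-CYB at 0.09. With DMSO 10 of the 13 were higher, the median was 0.09 with DOX and 0.19 with DMSO, and none passed the net test. All 4 differed between the guides, MT-ND4 by -0.31, sgZBTB11 #2 minus sgZBTB11 #1. With sgZBTB11 #2 alone none of the 13 was higher and 1 was lower (median -0.05), and with sgZBTB11 #1 alone 10 were higher (median 0.22). The share of counts from mitochondrial DNA was 21.8% ± 0.24 with sgZBTB11 #1 and 19.1% ± 0.23 with sgZBTB11 #2, against 19.9% ± 0.11 with sgNS (SD, n = 3 each), so the guides lay on opposite sides of sgNS. The count of 4 was 1 without sgNS replicate 3. MT-RNR2, a ribosomal RNA of mitochondrial DNA and not among the 13, went the other way at -0.09 (adjusted p = 0.013, edgeR). It averaged 48924 CPM with the ZBTB11 guides and 51944 CPM with sgNS, and its DMSO difference was 0.05. MT-RNR2 also passed the net test (-0.14, adjusted p = 0.046, edgeR). By guide, it was at 0.004 with sgZBTB11 #1 and -0.18 with sgZBTB11 #2.

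Of 17 tested transcription factors of the immediate early class, which growth factor and stress signals switch on within minutes, 5 were higher with the ZBTB11 guides (29.4%, against 3.5% of all genes), 1 was lower and 11 did not pass. NR4A1 (ENSG00000123358.20, chromosome 12, 52022832 to 52059503), an orphan nuclear receptor of this class, was at 88.3, 87.8 and 80.3 CPM with sgZBTB11 #1 and at 63.6, 61.5 and 60.9 CPM with sgZBTB11 #2, against 35.1, 31.8 and 34 CPM with sgNS. Every ZBTB11-guide library was above every sgNS library, and those of sgZBTB11 #1 were highest. The mean was 73.7 ± 13 CPM with the ZBTB11 guides (SD, n = 6) and 33.7 ± 1.7 CPM with sgNS (n = 3), a log2 difference of 1.11 (SE 0.047, adjusted p = 1.5e-21, edgeR). With DMSO the mean was 70.7 ± 5.6 CPM with the ZBTB11 guides and 51.7 ± 2.8 CPM with sgNS. By guide, sgZBTB11 #1 was higher with DOX than with its DMSO values of 79.6, 75.2 and 69.6 CPM, and sgZBTB11 #2 lower than with its DMSO values of 64.7, 67.6 and 67.6 CPM. The sgNS libraries were lower with DOX than with DMSO.

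EGR3, a zinc finger factor of the early growth response family, was at 17.7, 19.8 and 19.3 CPM with sgZBTB11 #1 and 18.4, 16.6 and 17.6 CPM with sgZBTB11 #2, against 12.3, 12.4 and 11.4 CPM with sgNS. Both guides lay above sgNS and overlapped each other, with a log2 difference of 0.60 (SE 0.073, adjusted p = 1.1e-07), while the DMSO difference was -0.20 and did not pass. With DMSO, EGR3 averaged 14.2 CPM with the ZBTB11 guides and 16.3 CPM with sgNS, so sgNS was lower with DOX. FOSB, a partner in the AP-1 dimer, was at 147, 146 and 153 CPM with sgZBTB11 #1 and 128, 133 and 134 CPM with sgZBTB11 #2, against 95.9, 103 and 97.9 CPM with sgNS, a log2 difference of 0.50 (adjusted p = 6.6e-15). With DMSO, FOSB averaged 134 ± 11 CPM with the ZBTB11 guides and 118 ± 6.8 CPM with sgNS, so here too sgNS was lower with DOX. In TPM, FOSB was higher with DOX than with DMSO for sgZBTB11 #1 (42.72 to 46.45 against 35.99 to 36.86). For sgZBTB11 #2 it was lower with DOX (41.15 to 42.63 against 45.73 to 46.22 TPM). The other members past the threshold were EGR4 at 0.56 and JUN at 0.16, both higher, and JUNB at -0.13. The median of the 17 was 0.08 with DOX and -0.01 with DMSO. FOS at -0.04 and EGR1 at 0.05 did not pass.

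SOCS3, NFKBIZ and NFKBIA, genes of cytokine or NF-kB signalling, were among the higher ones. SOCS3, which restrains JAK kinases, was at 52.3, 51.6 and 52 CPM with sgZBTB11 #1 and 40.7, 41.1 and 40.3 CPM with sgZBTB11 #2, against 30.1, 30.8 and 28.5 CPM with sgNS. The 3 groups did not overlap, and the log2 difference was 0.63 (adjusted p = 6e-14), against 0.18 with DMSO. With DMSO, SOCS3 averaged 44 CPM with the ZBTB11 guides and 38.7 CPM with sgNS, so sgNS was lower with DOX. In TPM, sgZBTB11 #1 was at 18.33 to 18.84 with DOX and 14.06 to 14.59 with DMSO. By contrast, sgZBTB11 #2 was at 15.07 to 15.53 TPM with DOX and 16.84 to 18.46 TPM with DMSO. NFKBIZ, a partner of NF-kB, averaged 17.7 ± 0.65 CPM with the ZBTB11 guides and 13.2 ± 0.3 CPM with sgNS. Its log2 difference was 0.42 (adjusted p = 2.5e-05), and -0.05 with DMSO. With DMSO the means were 17.1 CPM with the ZBTB11 guides and 17.6 CPM with sgNS. The ZBTB11-guide mean was thus close to its DMSO value, while sgNS was lower with DOX. NFKBIZ lies in the same region as ZBTB11, on chromosome 3 from 101827990 to 101861022, where it overlaps the end of NXPE3. NFKBIA, which holds NF-kB in the cytoplasm, was at 0.37. It averaged 136 CPM with the ZBTB11 guides and 105 CPM with sgNS, and with DMSO 128 and 118 CPM. Among 20 tested targets and feedback genes of NF-kB 2 were higher (10%, against 3.5% of all genes) and 2 lower (10%, against 4.49%). NFKBIA and the chemokine CXCL2 (0.39) were higher, and the chemokines CXCL1 and CXCL8 were lower, both at -0.35. The other 16 did not pass, and the median of the 20 was -0.03. CSRNP1, a nuclear protein induced by AXIN1, was higher at 0.60 without passing the net test (0.31).

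TXNIP, an arrestin-like protein that binds thioredoxin and limits glucose uptake, had the smallest p-value among the genes named. It was at 187, 186 and 181 CPM with sgZBTB11 #1 and 217, 211 and 219 CPM with sgZBTB11 #2, against 324, 322 and 323 CPM with sgNS. Both guides lay far below sgNS, and the log2 difference was -0.70 (SE 0.024, adjusted p = 1.7e-24, edgeR). With DMSO, TXNIP averaged 197 ± 9.9 CPM with the ZBTB11 guides and 269 ± 2.1 CPM with sgNS, a log2 difference of -0.45, and the net difference was -0.25 (adjusted p = 3.1e-05). The ZBTB11-guide mean was thus close to its DMSO value, while sgNS was higher with DOX than with DMSO.

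Other genes that passed both tests, chosen after their values were seen unless named by rule, included partners of membrane traffic. C17orf75 and WDR11, members of 1 complex that captures vesicles at the Golgi, were lower at -0.43 (adjusted p = 7.8e-08) and -0.27 (adjusted p = 1.5e-07). SAR1B, the GTPase that builds COPII coats, was lower at -0.37, with means of 74.9 CPM with the ZBTB11 guides and 96.9 CPM with sgNS. Among mitochondrial proteins HEMK1, which methylates release factors, was lower at -0.27, the nuclease ENDOG at -0.25 and ATPAF1, an assembly factor of the ATP synthase, at -0.14. By rule, PSD, an exchange factor for the GTPase ARF6, was lower at -0.54, the noncoding RNA LINC00920 was lower at -0.67, and MEX3B, an RNA-binding protein, was higher at 0.35 (adjusted p = 0.038). Among the 14 higher genes UFC1, the conjugating enzyme of the ubiquitin-like modifier UFM1, was at 0.40, with means of 74.9 CPM with the ZBTB11 guides and 56.8 CPM with sgNS. IL18RAP at -2.93 was close to the limit of counting, with means of 0.315 CPM with the ZBTB11 guides and 2.33 CPM with sgNS.

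Several of the largest differences with DOX, in contrast to those of NR4A1, SOCS3, CASP1, TXNIP, ZBTB11 and LINC00920, were about as large with DMSO. COL6A3, a chain of collagen VI, was at 14.4, 18.7 and 14.1 CPM with sgZBTB11 #1 and 9.3, 7.95 and 7.85 CPM with sgZBTB11 #2, against 2.5, 2.67 and 3.29 CPM with sgNS. The 3 groups did not overlap, and the log2 difference was 2.02 (SE 0.13, adjusted p = 3.9e-15) with DOX and 1.89 with DMSO. DHRS2, a dehydrogenase of the short-chain family, was at 3.34, 2.82 and 3.78 CPM with sgZBTB11 #1 and 1.87, 1.46 and 1.78 CPM with sgZBTB11 #2, against 14.7, 15.6 and 15.7 CPM with sgNS. Both guides lay far below sgNS, at a log2 difference of -2.68 (SE 0.1, adjusted p = 1.7e-23) with DOX and -2.70 with DMSO. Net differences of these 2 genes were 0.13 and 0.02, and neither passed.

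DKK1, a secreted inhibitor of Wnt signalling, was at 16, 16.5 and 16.5 CPM with sgZBTB11 #1 and 8.9, 7.84 and 8.28 CPM with sgZBTB11 #2, against 4.26, 5.15 and 4.8 CPM with sgNS. All ZBTB11-guide libraries were above sgNS, at 1.30 with DOX and 1.31 with DMSO. RYR2, a calcium release channel, was higher at 1.13, CDH5, the cadherin of endothelium, at 0.89, COL3A1, the chain of collagen III, at 0.80, TMC6, a membrane protein, at 0.75 and AKR1B1, aldose reductase, at 0.66. Their DMSO differences were 1.25 for RYR2, 0.88 for CDH5, 0.84 for COL3A1, 0.58 for TMC6 and 0.76 for AKR1B1. CDH5, the endothelial marker past 1 TPM, came to 2.89 to 6.18 TPM, with the summed endothelial markers at 4.89 to 6.18 TPM with the ZBTB11 guides and 2.96 to 3.07 TPM with sgNS. KDR was listed at 0 in every library, and PECAM1 and VWF did not exceed 0.02 TPM.

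CFI, the complement protease factor I, was at 8.02, 7.47 and 8.57 CPM with sgZBTB11 #1 and 19.5, 18.4 and 18.9 CPM with sgZBTB11 #2, against 29.2, 30.5 and 30.4 CPM with sgNS, a log2 difference of -1.28 with DOX and -1.39 with DMSO. The guides stood apart from each other as well as from sgNS. TNFSF18, the ligand of the receptor GITR, was lower at -0.97, TAF4B, a subunit of TFIID, at -0.94, MIR503HG, the host RNA of miR-503, at -0.91, TSC22D3, a protein that glucocorticoids induce, at -0.84 and CASP1, the inflammatory caspase, at -0.74. With DMSO the differences were -0.88 for TNFSF18, -1.01 for TAF4B, -0.80 for MIR503HG, -0.68 for TSC22D3 and -0.42 for CASP1. None of these 5 passed the net test.

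**Figure D3:**
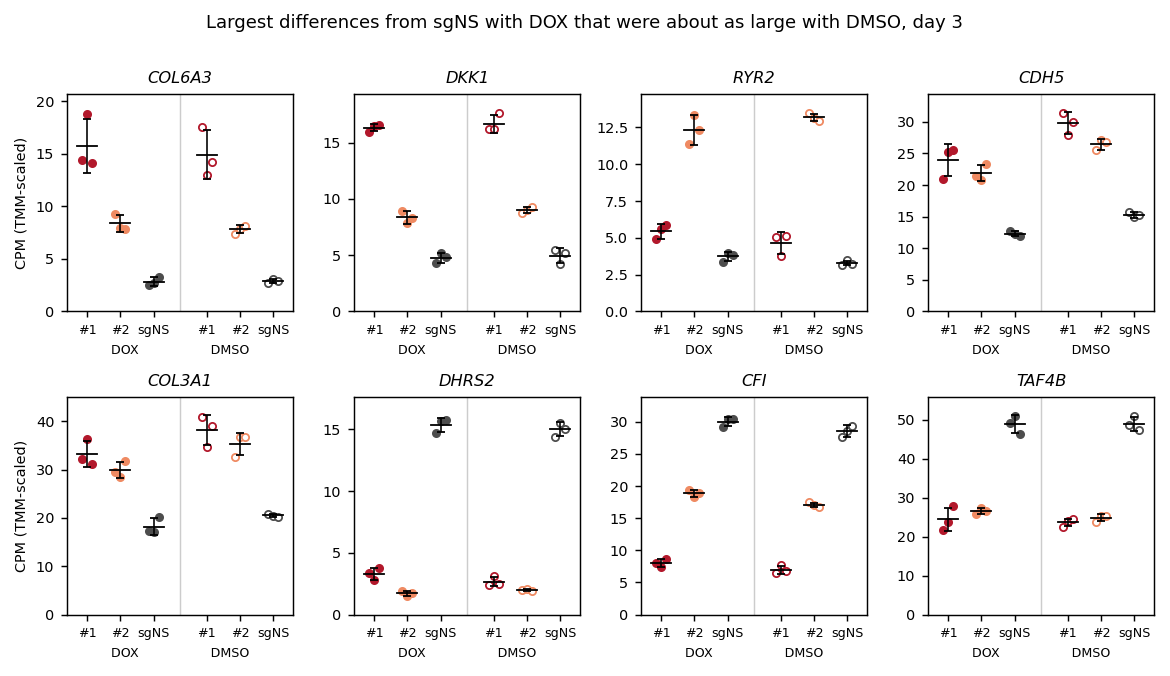
Levels in CPM (y axis, starting at 0) of 8 genes named for their large differences with DOX, in each day 3 library, in the order sgZBTB11 #1, sgZBTB11 #2 and sgNS, filled for DOX and open for DMSO; lines and bars are means and SDs of 3 libraries. The pattern with DOX is repeated with DMSO in every panel, for example DHRS2, at 1.46 to 3.78 CPM with the ZBTB11 guides and 14.7 to 15.7 CPM with sgNS under DOX.

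In the lists for extracellular matrix, interferon response and antigen presentation, most members did not pass, and the counts with DMSO are given beside those with DOX. Of 27 tested matrix genes 10 were higher (37%, against 3.5% of all genes) and 1 lower, LAMA4 at -0.99 and about 1 CPM. Besides COL6A3 and COL3A1 the higher ones included COL17A1, a collagen of hemidesmosomes, at 0.26, and COL1A2 at 0.10. The matrix median was 0.15 with DOX and 0.09 with DMSO, where 7 were higher. The summed fibroblast markers, COL1A2 and COL3A1 among them, were at 194 to 204 TPM with sgZBTB11 #1 and 211 to 214 TPM with sgZBTB11 #2, against 184 to 194 TPM with sgNS, and their part in the matrix result was not tested. The matrix count was 6 without sgNS replicate 2, and LAMA4 lost its call without sgNS replicate 1. Among 16 epithelial adhesion and keratin genes 4 were higher (25%), led by DSP, the desmosomal plaque protein (0.32), and CLDN4, a tight junction protein (0.28). Another 2 were lower (12.5%, against 4.49% of all genes), KRT19 (-0.43) and KRT15 (-0.22). The 4 became 2 without sgNS replicate 1 or 3, sgZBTB11 #1 replicate 2 or sgZBTB11 #2 replicate 3.

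Of 23 tested interferon response genes 8 were lower (34.8%, against 4.49% of all genes) and none higher, and with DMSO 9 were lower. ISG20, an exonuclease, was at -0.60, XAF1, an antagonist of an apoptosis inhibitor, at -0.50, OAS1, a sensor of double-stranded RNA, at -0.42 and RIGI, another such sensor, at -0.28. OAS1 averaged 15.3 ± 2.1 CPM with the ZBTB11 guides and 20.2 ± 0.78 CPM with sgNS. Of 15 tested antigen presentation genes 7 were lower (46.7%) and none higher: the peptide transporter TAP2 was at -0.20 and B2M, the light chain of class I molecules, at -0.18. B2M averaged 937 ± 22 CPM with the ZBTB11 guides and 1058 ± 7.4 CPM with sgNS. With DMSO 7 of the 15 were lower as well, the count with DOX was 4 without sgNS replicate 1, and none of either list passed the net test. The medians were -0.15 with DOX and -0.12 with DMSO for interferon genes, and -0.15 with DOX and -0.07 with DMSO for antigen presentation.

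Of 30 tested autophagy and lysosome genes 8 were lower (26.7%, against 4.49% of all genes) and none higher. Among the 8 were the proteases CTSD (-0.19) and CTSB (-0.17) and the autophagy receptor SQSTM1 (-0.17). With DMSO 7 were lower, and with DOX the count was 5 without sgNS replicate 2 or 3. By guide, 9 were lower with sgZBTB11 #1 and 1 with sgZBTB11 #2, and 9 of the 30 differed between the guides. None of the 30 passed the net test. The YAP-TEAD targets had 3 higher of 17 (17.6%, against 3.5% of all genes), with CCN1 at 0.32. CCN2, at 1.02, averaged 1.09 CPM with the ZBTB11 guides and 0.534 CPM with sgNS, and the count was 1 without sgNS replicate 1. Of the cancer line's own 8 markers 4 were lower (50%), KRT19, S100A6 (-0.20), VIM (-0.15) and ANXA1 (-0.09), and 2 without any 1 of the sgNS replicates. Their summed levels were 12345 to 13069 TPM with the ZBTB11 guides and 14058 to 14213 TPM with sgNS, over all 8. The part these marker levels play in the other differences was not tested.

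RAS signalling output was mixed. Of 24 tested genes 2 were higher (8.33%, against 3.5% of all genes), SPRY2 (0.14) and EPHA2 (0.15). Another 5 were lower (20.8%, against 4.49% of all genes), led by the receptor EPHA4 (-0.18), the ETS factor ETV5 (-0.17) and the EGFR ligand AREG (-0.15). With DMSO 1 was higher and 8 lower, and with DOX the 5 became 3 without sgNS replicate 1 or 2, without sgZBTB11 #1 replicate 3 or without sgZBTB11 #2 replicate 3, and 2 without sgNS replicate 3. The 2 higher became 1 without sgNS replicate 1 or 2. DUSP6, a phosphatase that MAPK signalling induces, was at -0.07 and did not pass (adjusted p = 0.123). Receptor tyrosine kinases and their ligands had 4 higher of 21 (19%), with GAS6 at 0.21 and IGF2 at 0.19, and 1 lower (4.76%). The 4 became 1 without sgNS replicate 1 or 2. Glycolysis had 2 higher of 22 (9.09%), ALDOC (0.42) and ENO2 (0.10), and 2 lower (9.09%), GAPDH (-0.14) and GPI (-0.08). The 2 higher became 1 without sgZBTB11 #1 replicate 1 or sgNS replicate 1 or 2 and 0 without sgNS replicate 3, and the 2 lower became 1 without any 1 of the sgNS replicates, sgZBTB11 #1 replicate 2 or sgZBTB11 #2 replicate 1 or 3. In the integrated stress response, which mitochondrial faults can switch on, 1 of 24 was higher (4.17%), PPP1R15A (0.23), and 1 lower (4.17%), PCK2 (-0.14). Both shares were near those of all genes, and PCK2 lost its call in 22 of 29 alternatives.

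The shares called among proliferation genes were near that of all genes (7.99%). Of 39 tested DNA replication genes 3 were higher and 1 lower, GINS4 (-0.25), together 10.3%, and of 40 genes of G2 and mitosis 2 were lower (5%). The 3 became 1 without sgZBTB11 #2 replicate 3 and 0 without sgNS replicate 1 or 2, and the 2 became 0 without sgNS replicate 1 or 2. Of 19 p53 targets 1 was lower (5.26%), TP53I3 (-0.27), and 2 were lower without sgNS replicate 1. Of 18 genes of the MYC network 3 were higher (16.7%), with NOP56, a protein of ribosome assembly, at 0.14. Another 2 were lower (11.1%), of which 1 was left without sgNS replicate 2 or 3. Of 80 tested proteins of the cytosolic ribosome 2 were higher with DOX (2.5%), RPSA (0.13) and RPL27 (0.09), against 45 with DMSO. The median was 0.03 with DOX and 0.13 with DMSO, and 5 of the 80 were lower by the net test. The 2 became 0 to 6 when a DOX library was left out, with 6 without sgZBTB11 #1 replicate 2. They became 16 when a trend on gene length and GC content was removed. The unfolded protein response had 3 lower of 19 (15.8%), and 1 without sgNS replicate 1. In 10 further lists, on apoptosis, lipid synthesis, integrins and the like, 9 of 154 tested genes were higher and 8 lower, where 3.5% of all genes were higher and 4.49% lower.

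**Figure D4:**
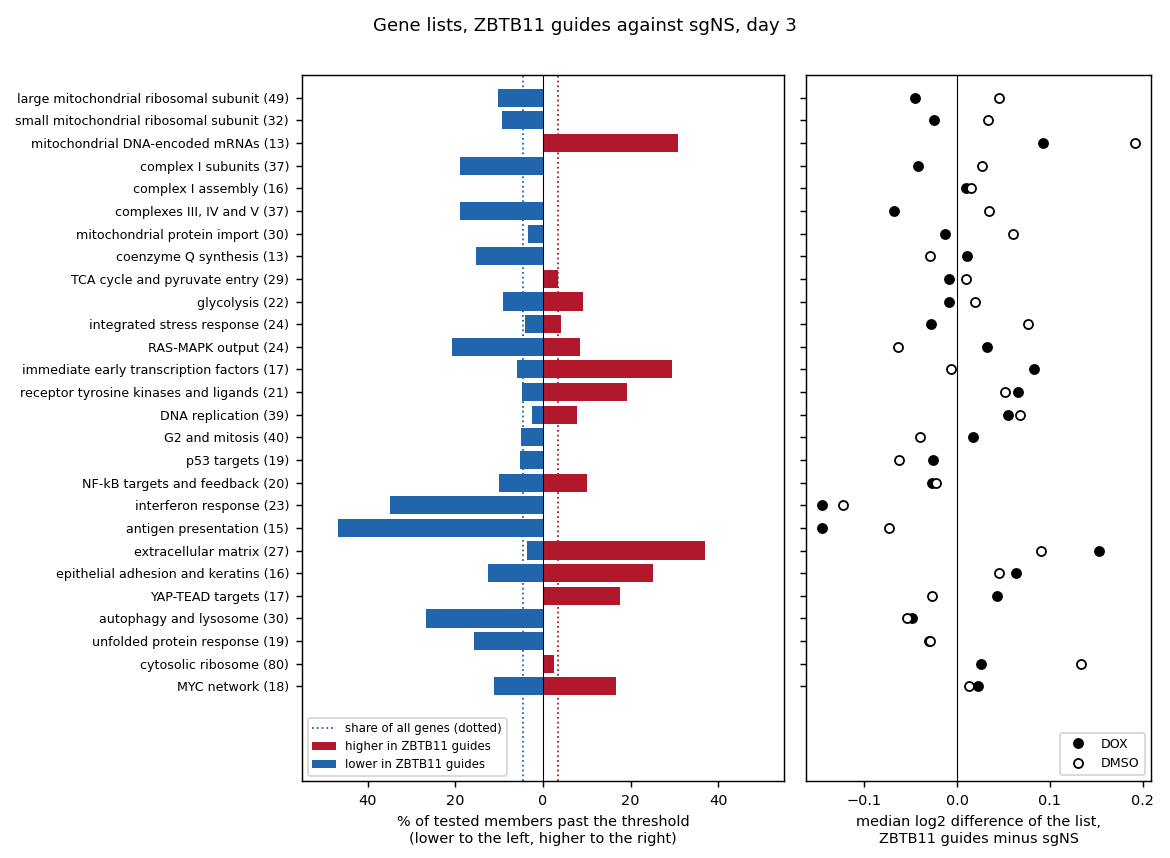
The left panel gives, for 27 gene lists with the number of tested members in brackets, the percent of members past the threshold with DOX, lower with the ZBTB11 guides to the left and higher to the right, and dotted lines mark the shares of all genes, 4.49% lower and 3.5% higher. The right panel gives the median log2 difference of each list, filled for DOX and open for DMSO. Antigen presentation reaches 46.7% lower and extracellular matrix 37% higher. The large mitochondrial ribosomal subunit has its DOX and DMSO medians on opposite sides of 0. So do other lists, among them the small subunit, complex I, complexes III, IV and V, mitochondrial protein import and the integrated stress response.

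The guides differed from each other in 1691 of 16645 genes with DOX (10.2%), and among the 1330 genes in 432 (32.5%). Against sgNS, which both comparisons share, 2195 genes differed with sgZBTB11 #1 (13.2%) and 699 with sgZBTB11 #2 (4.2%). The guide with the lower ZBTB11, sgZBTB11 #2, thus had the fewer differing genes. COQ3, AGK and MRPL48 followed the order of ZBTB11, with sgZBTB11 #2 lowest. MRPL58 was about equal with both guides (-0.32 with sgZBTB11 #1 and -0.31 with sgZBTB11 #2). ENDOG (-0.30 and -0.20) and TXNIP (-0.81 and -0.58) were lower with sgZBTB11 #1. In addition, NR4A1, SOCS3 and FOSB were higher with sgZBTB11 #1. SLITRK5, a neuronal membrane protein, had 29.9, 26.6 and 30.6 CPM with sgZBTB11 #2 and was at 0 in all libraries of sgZBTB11 #1 and sgNS, where 3 counts would be 0.173 to 0.208 CPM. TPD52L1 was at 21.6, 22.7 and 20.9 CPM with sgZBTB11 #2 and 3.12, 4.13 and 2.96 CPM with sgZBTB11 #1, against 6.43, 8.93 and 9.95 CPM with sgNS. The noncoding RNA LINC01182 was at 30.5, 29.3 and 31 CPM with sgZBTB11 #2 and 5.82, 5.9 and 5.79 CPM with sgZBTB11 #1, against 21.2, 21.3 and 21.4 CPM with sgNS. Of these 3 genes, all highest with sgZBTB11 #2, SLITRK5 was at 0 in both other lines and LINC01182 was high in 2 lines. In the other direction, PRND, the prion-like protein doppel, was at 2.33, 2.28 and 2.33 CPM with sgZBTB11 #2 and 13.5, 13 and 13.9 CPM with sgZBTB11 #1, against 3.65, 3.39 and 3.29 CPM with sgNS. CCM2L and PLPP3 were lower with sgZBTB11 #2 than with sgZBTB11 #1 by -1.08 and -1.06 on the log2 scale, with sgNS between the guides.

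The other times of the study, which use other libraries, show how the day 3 differences stood before and after. In the same DOX comparison, 612 of 1310 of the genes tested were called in the same direction at 5 hr (46.7%, where 30.1% of all genes were called), 620 of 1318 at day 1 (47%, 26.4% of all) and 775 of 1329 at day 5 (58.3%, 29.1% of all). Of the 50 genes that also passed the net test, 11 of 49 were called in the same direction at 5 hr, 23 of 50 at day 1 and 40 of 50 at day 5. The differences of ZBTB11 were -0.13, -0.46, -0.81 and -0.67 at 5 hr, day 1, day 3 and day 5. COQ3 ran -0.09, -0.21, -0.64 and -0.56, AGK -0.05, 0.02, -0.44 and -0.41, and MRPL48 0.08, -0.16, -0.51 and -0.66. MRPL40 ran 0.08, -0.32, -0.38 and -0.55 over the same 4 times. These mitochondrial genes were near 0 at 5 hr and lowest at day 3 or day 5. The values hold the standing difference of the lines, which is not subtracted. With DMSO the differences at 5 hr and day 1 were 0.12 and -0.14 for ZBTB11 and -0.005 and -0.13 for COQ3. They were 0.12 and 0.04 for AGK, -0.08 and -0.06 for MRPL48 and -0.11 and -0.20 for MRPL40.

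The immediate early genes had no such course. NR4A1 differed by 0.81, -0.18, 1.11 and 0.06 at 5 hr, day 1, day 3 and day 5, EGR3 by 0.15, -0.11, 0.60 and 0.23, FOSB by 0.22, -0.17, 0.50 and 0.26, and SOCS3 by 0.16, 0.06, 0.63 and -0.12. Their signs varied over time, and TXNIP ran -0.83, -0.31, -0.70 and -0.10 in the same order. Some of the genes with standing differences had the same sign at all 4 times: COL6A3 ran 1.28, 1.42, 2.02 and 2.88, DHRS2 -1.54, -2.30, -2.68 and -2.27, and CFI -1.88, -1.83, -1.28 and -1.55. TSC22D3 did not, at 0.05, -0.60, -0.84 and -0.77.

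**Figure D5:**
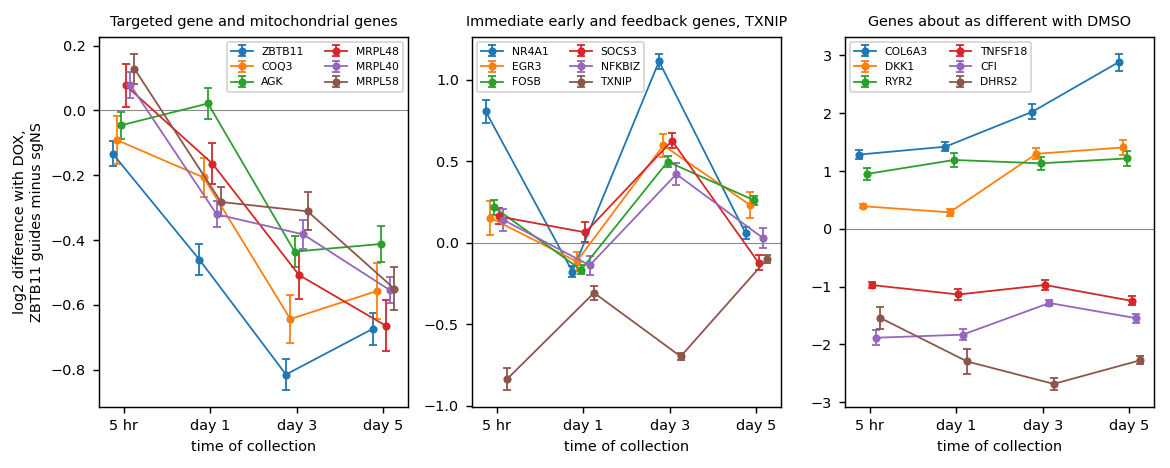
Log2 differences with DOX, ZBTB11 guides minus sgNS (y axis, with bars of 1 SE), at 5 hr, day 1, day 3 and day 5 (x axis). The differences with DMSO are not subtracted. The mitochondrial genes lie near 0 at 5 hr and below 0 from day 3, the immediate early and feedback genes peak at day 3 with values near 0 or below at day 1, and the 6 genes in the panel of standing differences keep their sign throughout.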

How the data were processed

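The deposited files were expected counts (RSEM's fractional estimates) and, separately deposited, TPM values, for each gene. The submitters' processing notes name RSEM and GRCh38.p14. For aligner, annotation and strandedness, the sources used here give nothing. RSEM divides reads between near-identical copies by estimation, which makes pseudogenes and close paralogs uncertain. Per the labels' protocols, poly(A) RNA was prepared with a Watchmaker kit.

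Expected counts were rounded (5.13% of values were not whole). All 18 day 3 libraries, of 12068833 to 17323314 counts, entered 1 fit with a mean per group in edgeR 4.0.16 (R 4.3.3), using filterByExpr, TMM factors and the robust quasi-likelihood F test. P-values were adjusted by Benjamini-Hochberg over 16645 genes, with a threshold of 0.05. CPM values are TMM-scaled. The 18 pairs of libraries within groups had a chi-square per degree of freedom of 1.35 to 3.34, and none was identical. On simulated data, over 16407 genes, the DOX test called 58% of 50 genes changed by 0.25, 94% at 0.5 and 100% at 1 and at 2 (log2), with 14 false calls. The changed genes had a mean of at least 5 CPM and the same change with both guides, and no standing difference of the lines was built in. Genes at lower levels, or with guides that differ, were not covered by these rates.

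Named genes were the 10 largest increases and decreases of the DOX difference past the threshold, with a mean of at least 5 CPM and all 6 ZBTB11-guide libraries on one side of sgNS. To these were added the 5 largest per direction past both the DOX and net tests, the 3 largest per direction between guides, ZBTB11 with its neighbours, and up to 4 members per gene list. One list member that the rule takes is not reported here. Other genes were chosen after their values were seen. Members and lists were chosen with earlier results of these data known. Promoters and coordinates are from RefSeq (GRCh38.p14). Alternatives were RLE scaling, DESeq2 1.42.0, other filters, a replicate block, other sets of libraries in the fit, counts without mitochondrial DNA, removal of a length and GC trend, limma 3.58.1 on log2(TPM + 1) or log2(TPM + 0.1), and leaving out each library.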

Additional observations from a re-analysis of the deposited data

Results flagged for a closer look

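Of 96 genes looked at, 40 are listed because the ZBTB11 guides differed from each other with DOX by the test of that difference (edgeR, adjusted p under 0.05), which uses 3 libraries of each guide and no sgNS library. Values are log2 differences, sgZBTB11 #2 minus sgZBTB11 #1. Genes lower with sgZBTB11 #2 were led by DKK1 -0.97, DHRS2 -0.96, COL6A3 -0.91, EGR4 -0.64, TMC6 -0.50, NR4A1 -0.46, CSRNP1 -0.40, NFKBIA -0.39, COQ3 -0.38, PSD -0.38, ALDOC -0.37 and SOCS3 -0.35. Smaller decreases were ZBTB11 -0.35, MT-ATP6 -0.33, MT-CO2 -0.33, MT-ND4 -0.31, MRPL48 -0.28, MT-CYB -0.26, CLDN4 -0.23, AGK -0.21, CCN1 -0.20, FOSB -0.18 and COL17A1 -0.16. Genes higher with sgZBTB11 #2 were led by CFI 1.23, RYR2 1.17, MIR503HG 0.51, CXCL2 0.44, NDUFS4 0.42, CXCL1 0.39, OAS1 0.35, CTSD 0.33, CTSB 0.30 and CXCL8 0.29. Smaller increases were MRPS6 0.26, SQSTM1 0.24, TXNIP 0.23, ETV5 0.18, ATP5F1E 0.17, AKR1B1 0.15 and GAPDH 0.14. 

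The share of counts from mitochondrial DNA is listed because every library of sgZBTB11 #1 lay above sgNS and every library of sgZBTB11 #2 below it. The share differed from sgNS by 1.88 percentage points with sgZBTB11 #1 and by -0.867 percentage points with sgZBTB11 #2, and this contrast between guides was not tested. It moved with the mRNAs MT-ND4, MT-ATP6, MT-CO2 and MT-CYB, which make up part of it.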

How the results depend on the processing

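The number of genes called rests on the tool, the unit and single libraries. DESeq2 without independent filtering called 714 genes with DOX, 934 with DMSO, 51 net, 1224 for sgZBTB11 #1, 356 for sgZBTB11 #2 and 980 between guides. limma on log2(TPM + 1) called 491 with DOX (211 higher, 280 lower), 22 net (15 higher, 7 lower), 1160 for sgZBTB11 #1 (329 higher, 831 lower) and 262 for sgZBTB11 #2 (167 higher, 95 lower), and split the DMSO calls into 185 higher and 1500 lower and the calls between guides into 1098 higher and 171 lower. With log2(TPM + 0.1) the counts were 503, 25 net, 1173 and 258, and without a filter on TPM 311 with DOX, 1040 with DMSO, 21 net, 711, 159 and 809. Without a filter on low counts the net count was 195 (91 higher, 104 lower). The causes were not tested. RLE scaling gave 1319 genes with DOX, the 9 DOX libraries alone 1306, all 70 libraries 1474, counts without mitochondrial DNA 1320, and removal of a length and GC trend (values for 91.8% of genes) 1517. The share of DOX calls also called with DMSO was 43.3% to 48.9% over these settings and 31.5% to 51.6% when 1 library was left out, with 38.7%, 31.5% and 33.4% without sgNS DMSO replicate 1, 2 or 3.

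Leaving out 1 library gave 774 to 1435 genes with DOX, 850 to 1885 with DMSO, 29 to 262 net, 1457 to 2319 for sgZBTB11 #1, 423 to 779 for sgZBTB11 #2 and 1221 to 1833 between guides. With DOX, 769, 736 and 789 of the 1330 genes kept their call without sgNS replicate 1, 2 or 3. The DMSO count was 850 and 912 without sgNS DMSO replicate 2 or 3. The count for sgZBTB11 #1 was 1457 without sgNS DOX replicate 2, and that for sgZBTB11 #2 was 423, 438 and 444 without sgNS DOX replicate 1, 2 or 3. The net count was 262, 31 and 29 without sgNS DMSO replicate 1, 2 or 3, 46, 41 and 29 without sgNS DOX replicate 1, 2 or 3, and 51 without sgZBTB11 #1 DMSO replicate 2. It was 47 or 45 when sgZBTB11 #2 DMSO replicate 2 or 3 was left out.

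With a replicate block the counts were 1315 with DOX (1280 shared with the fit without it), 1756 with DMSO, 84 net, 2161, 684 and 1676. The numbers do not pair the samples: 0 of 9 same-numbered pairs of DOX groups had a correlation over 0.1 (-0.128 to 0.055). No named gene changed direction. Of 89 genes named for the DOX difference and past the threshold, 48 kept their call in every alternative, and 67 whenever 1 library was left out. ZBTB11 differed by -0.87 to -0.75. EGR3 and MRPL30 each lost their call in 1 alternative, MEX3B in 13 of 29, RIGI and CCN2 in 10 each, AREG in 12 and GPI in 11. The counts limit genes near 1 CPM, and intervals cover the spread between libraries only.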
